A study of Mus musculus with 12 samples.

Results

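The 42 genes described here are Trp53, the gene of the tumour suppressor p53, with regulators and targets of p53 and regulators of apoptosis. They were chosen by name from a list and found by their symbol in the deposited expression table, where all 42 of 42 were present among 48034 genes. Poly(A) RNA came from subclone 53a of IMCD3, a mouse line derived from inner medullary collecting duct. As known of the study, these cells express a dominant-negative form of a tubule transcription factor once mifepristone is added. The 4 groups of 3 libraries, each lettered A, B and C, were mifepristone plus 100 mM added NaCl, vehicle plus 100 mM added NaCl, mifepristone without added NaCl, and vehicle without added NaCl. All 12 libraries come from this 1 subclone, and no group lacks the inducible mutant, so an action of mifepristone itself cannot be told apart from that of the mutant. The labels do not say whether replicate libraries stem from different cultures, so p-values measure the spread between libraries, which may be technical.

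p53 is a transcription factor that is kept scarce by the ubiquitin ligase Mdm2 and accumulates after DNA damage and other stress. It switches on genes that halt the cell cycle, repair DNA, damp growth signalling or start apoptosis. In the mitochondrial arm of apoptosis, BH3-only proteins free or activate the pore formers Bax and Bak1 against guardians such as Mcl1, and released cytochrome c lets Apaf1 activate Casp9. In the receptor arm, death receptors activate Casp8, which can cut Bid and so link both arms. Cells of the renal medulla live in high salt, and hypertonic NaCl is known to break DNA and to activate p53 in cultured medullary cells.

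Values are FPKM, fragments scaled to transcript length and to a scaling factor of each library, which can be compared between genes. Fold changes are on the log2(FPKM + 0.5) scale, which understates the change of low genes. A gene was tested where at least 3 of the 12 libraries reached an FPKM of 1, which 14044 genes did, and was called at an adjusted p under 0.05 in limma, a linear model fitted over all tested genes. Of the 42 members 40 were tested, and the death receptor genes Fas and Eda2r lay below the filter. Recovered reads numbered between 41940955 and 49270776 per library. Vehicle A and mifepristone C stood apart from their groups along transcript length, with the most negative values. Spearman rho of exon length with deviation from the group, over 13916 genes, was -0.44 and -0.51, against -0.29 to 0.46 in the other libraries. Deviations in a group of 3 mirror each other, and mifepristone A and B had 0.46 and 0.42. Mifepristone plus NaCl C also differed from its group (0.36 against -0.24 for A and -0.24 for B). Values without vehicle A and mifepristone C are given where they change the call of a member. Of 8 epithelium markers 6 were tested, with sums of 711.5 to 749.3 FPKM in mifepristone plus NaCl, 1108 to 1131 in vehicle plus NaCl, 842.9 to 975.5 in mifepristone and 840.8 to 879.5 in vehicle libraries. The collecting duct water channel gene Aqp2 averaged 0.0589 FPKM in mifepristone plus NaCl and 0.0105 in vehicle plus NaCl libraries. It was listed at 0 in both groups without NaCl, so Aqp2 does not mark the labelled cell type here. The epithelium list also holds Aqp3 and Cdh16, whose single values are not given, so general and collecting duct markers were not told apart. Marker sums of immune cells (5 genes) and endothelium (4 genes) stayed below 1 FPKM in each library. The fibroblast sum (5 genes) was 3.01 to 3.44 FPKM in mifepristone plus NaCl, 0.238 to 0.318 in vehicle plus NaCl, 5.64 to 6.33 in mifepristone and 0.258 to 0.351 in vehicle libraries, nearly all of it Dcn. The part of these markers in the results below was not tested. In such bulk RNA, fewer cells of one kind and less RNA per cell cannot be told apart.

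Mifepristone changed members in both directions. Without NaCl 15 of the 40 tested members rose and 12 fell, against 59.7% of all tested genes called (28.3% higher and 31.5% lower). With NaCl 18 rose and 9 fell, against 58.7% of all genes called (26.8% higher and 31.9% lower). Hypertonic NaCl raised 13 and lowered 11 members in vehicle cells, where 56.7% of all genes were called (25.2% higher and 31.5% lower). In mifepristone cells it raised 14 and lowered 14, where 58.7% of all genes were called (24.5% higher and 34.2% lower). The members' shares called, 67.5% and 67.5% for mifepristone without and with NaCl and 60% and 70% for NaCl in vehicle and in mifepristone cells, were thus near those of all genes. Their median log2 fold changes were 0.04, 0.09, 0.05 and 0.01 in the same order, beside -0.01, -0.03, -0.02 and -0.06 over all tested genes. Called changes of at least 1.5-fold were found in 6, 7, 6 and 5 members, against 16.1%, 16.8%, 13.0% and 14.8% of all tested genes. The 3 libraries of each group did not overlap in 29, 31, 29 and 29 of the 40 members, against 59.3%, 71.2%, 67.9% and 60.8% of all tested genes. The comparisons share libraries in pairs, so their calls are not independent.

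**Figure D1:**
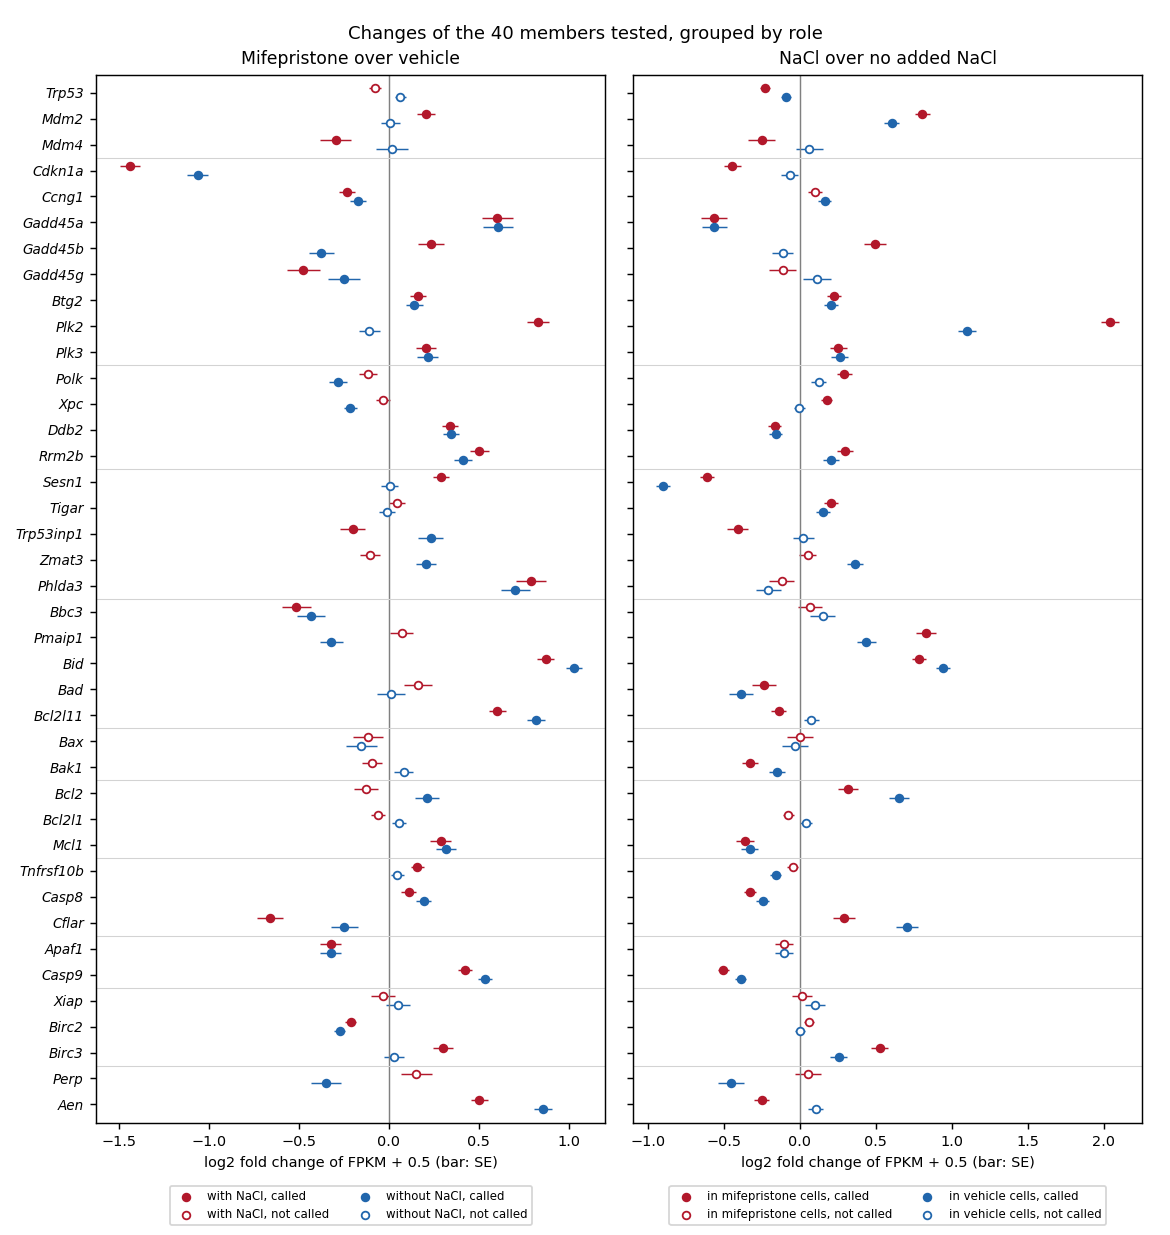
Log2 fold change of FPKM + 0.5 for the 40 tested members, in rows grouped by role. The left panel shows mifepristone over vehicle with NaCl (red) and without NaCl (blue), and the right panel NaCl over no added NaCl in mifepristone cells (red) and in vehicle cells (blue). Bars are SE, filled points are called by limma at an adjusted p under 0.05, and members lie on both sides of 0 in each comparison, from Cdkn1a at -1.44 to Plk2 at 2.04.

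The gene of p53 itself was expressed at nearly the same level throughout. Trp53 had 29.8, 28.3 and 29.4 FPKM in mifepristone plus NaCl, 31.7, 30.3 and 30.4 in vehicle plus NaCl, 33.8, 34.1 and 35.0 in mifepristone and 33.3, 32.6 and 32.4 in vehicle libraries. The groups with NaCl lay below those without it and did not overlap with them. NaCl lowered Trp53 1.17-fold in mifepristone cells (log2 fold change -0.23, SE 0.0332, limma adjusted p = 0.000125). In vehicle cells the difference was -0.09 (limma adjusted p = 0.0413), a call lost without vehicle A, B or C, vehicle plus NaCl B or C, mifepristone plus NaCl C, or mifepristone B (limma adjusted p 0.0539 to 0.133). It was also lost under median-ratio scaling and quantile normalization and without vehicle A and mifepristone C together (limma adjusted p 0.0601 to 0.106). Mifepristone gave log2 fold changes of 0.07 without and -0.08 with NaCl, and neither was called. The call was made at -0.08 with NaCl when mifepristone C was left out (limma adjusted p = 0.0471), and at 0.08 without NaCl under median-ratio scaling (limma adjusted p = 0.0459).

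Mdm2, which is both the chief inhibitor of p53 and one of its targets, rose with NaCl. It had 23.8, 27.3 and 26.2 FPKM in mifepristone plus NaCl, 22.3, 22.7 and 21.5 in vehicle plus NaCl, 14.7, 14.97 and 13.8 in mifepristone and 14.2, 14.5 and 14.5 in vehicle libraries. All 6 libraries with NaCl lay above all 6 without it. The rise was 1.75-fold in mifepristone cells (log2 fold change 0.81, SE 0.0502, limma adjusted p = 1.46e-07) and 1.52-fold in vehicle cells (0.61, limma adjusted p = 1.9e-06). Mifepristone raised it 1.16-fold with NaCl (0.21, limma adjusted p = 0.00404), while the value without NaCl was 0.01 and not called. The interaction of mifepristone and NaCl was not called for Mdm2 in the main fit. It was called without mifepristone plus NaCl A (0.25, limma adjusted p = 0.0108), under quantile normalization (0.24) and with voom (0.25). Mdm4, a relative of Mdm2 that blocks the activity of p53, averaged 8.001 ± 0.465 FPKM in mifepristone plus NaCl and 9.93 ± 0.469 in vehicle plus NaCl libraries (SD, n = 3 each), and 9.65 ± 1.24 in mifepristone and 9.48 ± 0.773 in vehicle libraries. It fell with mifepristone in the presence of NaCl (log2 fold change -0.30, limma adjusted p = 0.0136), a call lost without mifepristone plus NaCl A (-0.26, limma adjusted p = 0.0534). Its fall with NaCl in mifepristone cells (-0.25, limma adjusted p = 0.0305) was lost under both other scalings and without mifepristone plus NaCl A, mifepristone plus NaCl B, mifepristone A or mifepristone B (limma adjusted p 0.0638 to 0.111).

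Cdkn1a, which encodes the cyclin-dependent kinase inhibitor p21 and is the best known p53 target in cell cycle arrest, had the largest fall with mifepristone among the 40 members. The gene lies at chr17:29090976-29100727 on the plus strand (GRCm38, GENCODE M21). It had 21.9, 24.6 and 21.5 FPKM in mifepristone plus NaCl, 61.4, 65.4 and 60.1 in vehicle plus NaCl, 29.1, 31.8 and 32.0 in mifepristone and 65.4, 65.2 and 65.0 in vehicle libraries. Every mifepristone library was lower than every vehicle library. The fall was 2.09-fold without NaCl (log2 fold change -1.06, SE 0.0561, limma adjusted p = 3.24e-08) and 2.71-fold with NaCl (-1.44, limma adjusted p = 2.49e-09). NaCl lowered it 1.36-fold in mifepristone cells (-0.44, limma adjusted p = 4.63e-05), whereas in vehicle cells the log2 fold change was -0.07 and not called. The mifepristone effect differed between the salt conditions (interaction -0.38, SE 0.0794, limma adjusted p = 0.00446).

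The bases upstream of 3 members are shown because each holds letters of a known response element and the 3 genes moved differently. They are the 250 bases before an annotated start (RefSeq, GRCm38.p6), with the motif in capitals. The motifs were searched on both strands. For Cdkn1a (chr17:29090729-29090978, plus strand) the capitals mark the paired core of p53 half-sites, a CATG on each side of 6 further bases, which begins at position -48 from that start. For Gadd45b (chr10:80929841-80930090, plus strand) they mark the core TGGAAA, or its reverse complement, of the element bound by the hypertonicity factor Nfat5, at positions -152 and -92. For Bbc3 (chr7:16309333-16309582, plus strand) they mark a kappaB core, GGG and TTTCC with 2 bases between them (here on the other strand), which begins at position -136.
Cdkn1a: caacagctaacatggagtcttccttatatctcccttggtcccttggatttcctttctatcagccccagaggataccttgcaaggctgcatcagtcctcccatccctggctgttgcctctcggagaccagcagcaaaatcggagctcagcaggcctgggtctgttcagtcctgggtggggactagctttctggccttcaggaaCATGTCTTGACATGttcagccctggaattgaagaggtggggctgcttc
Gadd45b: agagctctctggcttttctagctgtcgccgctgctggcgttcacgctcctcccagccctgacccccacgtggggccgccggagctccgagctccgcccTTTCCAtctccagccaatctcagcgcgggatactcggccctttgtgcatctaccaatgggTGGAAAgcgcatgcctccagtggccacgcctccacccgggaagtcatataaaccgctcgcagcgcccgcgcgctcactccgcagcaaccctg
Bbc3: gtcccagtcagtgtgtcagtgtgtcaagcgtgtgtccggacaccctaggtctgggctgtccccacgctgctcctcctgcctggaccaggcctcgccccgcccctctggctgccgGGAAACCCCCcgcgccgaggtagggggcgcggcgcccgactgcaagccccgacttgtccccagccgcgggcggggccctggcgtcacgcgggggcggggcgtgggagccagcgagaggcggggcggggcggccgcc
Promoters were matched for 34 of the 42 members, 48 stretches in all. The paired p53 core was in 1 of these 48 and in 0.49% of 32851 promoters, and the Nfat5 core in 3 of 48 (Gadd45b, Mdm4 and Trp53) and 18.6% of all. The kappaB core was in 3 of 48 (Bbc3, Bcl2l1 and Mcl1) and 1.41% of all promoters. The half-site GTTAAT of tubule homeobox factors was in 1 of 48 (Mdm4) and 6.43% of all. A match describes letters in this window and shows no binding.

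Plk2, a polo-like kinase gene induced by p53 and by stress, had the largest change among the members. It lies at chr13:110395046-110400844 on the plus strand. Plk2 had 157, 176 and 159 FPKM in mifepristone plus NaCl, 98.7, 92.1 and 85.5 in vehicle plus NaCl, 40.7, 39.6 and 38.1 in mifepristone and 42.4, 42.4 and 42.8 in vehicle libraries. The mifepristone plus NaCl libraries stood above all others, with the vehicle plus NaCl libraries next. NaCl raised it 4.12-fold in mifepristone cells (log2 fold change 2.04, SE 0.0588, limma adjusted p = 3.07e-10) and 2.15-fold in vehicle cells (1.10, limma adjusted p = 5.34e-08). Mifepristone raised it 1.78-fold with NaCl (0.83, limma adjusted p = 3.45e-07) but gave -0.11 without NaCl, which was not called, and the interaction was 0.94 (SE 0.0832, limma adjusted p = 1.46e-05). Plk3, its lower expressed relative, averaged 3.99 ± 0.223 FPKM in mifepristone plus NaCl, 3.38 ± 0.0501 in vehicle plus NaCl, 3.26 ± 0.211 in mifepristone and 2.74 ± 0.183 in vehicle libraries (SD, n = 3 each). It rose in all 4 comparisons by 1.16-fold to 1.201-fold.

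**Figure D2:**
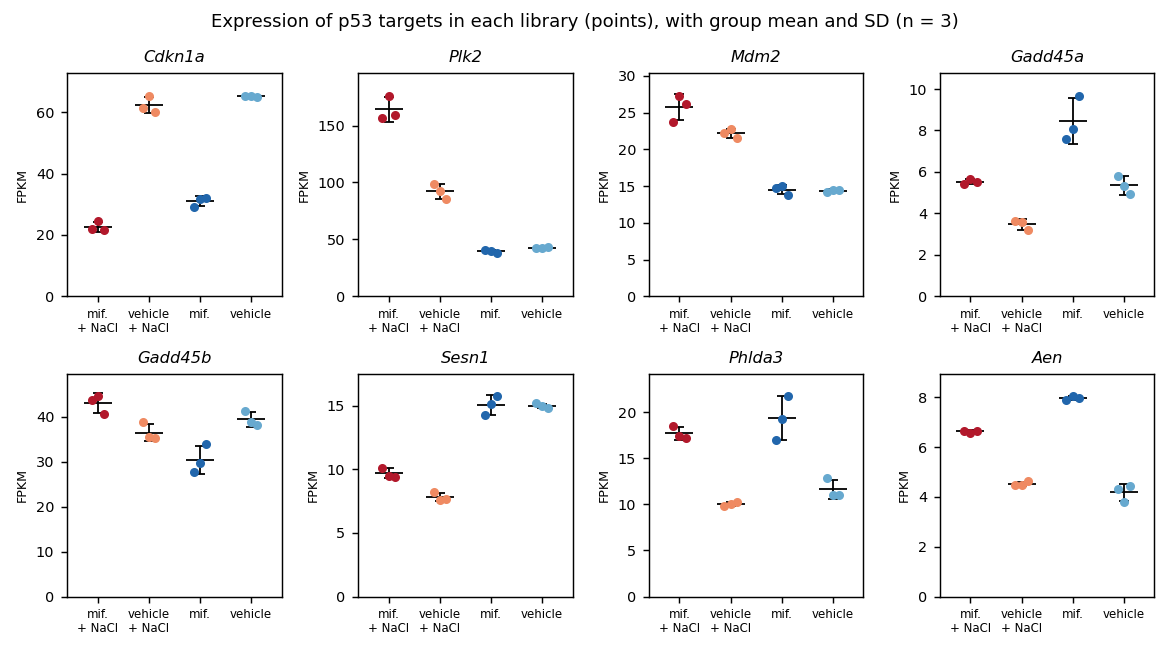
FPKM of 8 p53 targets in each library (points), with the group mean (dash) and SD (bars, n = 3), for mifepristone plus NaCl, vehicle plus NaCl, mifepristone and vehicle from left to right. Cdkn1a is low in both mifepristone groups (22.7 and 31.0 FPKM against 62.3 and 65.2), while Plk2 and Mdm2 are high in both NaCl groups.

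The 3 Gadd45 genes, which encode small stress proteins of growth arrest and DNA damage, each had a pattern of their own. Gadd45a had 5.41, 5.66 and 5.51 FPKM in mifepristone plus NaCl, 3.64, 3.581 and 3.18 in vehicle plus NaCl, 7.60, 8.06 and 9.69 in mifepristone and 5.82, 5.32 and 4.92 in vehicle libraries. It was higher with mifepristone and lower with NaCl, without overlap in either comparison of mifepristone. Mifepristone raised it 1.52-fold in both salt conditions (log2 fold change 0.61 without NaCl, limma adjusted p = 9.26e-05, and 0.60 with it), and NaCl lowered it by 0.56 on the log2 scale in both cell states. The opposite-strand transcript E230016M11Rik covers 19.1% of its exon bases and averaged 0.456 FPKM in mifepristone and 0.249 in vehicle libraries. Gadd45b had 43.8, 44.6 and 40.5 FPKM in mifepristone plus NaCl, 38.7, 35.5 and 35.2 in vehicle plus NaCl, 27.7, 29.6 and 33.8 in mifepristone and 41.3, 38.9 and 38.1 in vehicle libraries. The mifepristone libraries without NaCl were the lowest of the 12 for this gene. Mifepristone lowered Gadd45b without NaCl (log2 fold change -0.37, limma adjusted p = 0.00088) and raised it with NaCl (0.23, limma adjusted p = 0.0152), and the interaction was 0.61 (SE 0.101, limma adjusted p = 0.00113). The rise with NaCl present was lost without vehicle plus NaCl B or C or mifepristone plus NaCl B (0.21 each, limma adjusted p 0.0526 to 0.0575). Salt raised it 1.41-fold in mifepristone cells (0.50, limma adjusted p = 0.000119) and gave -0.11 in vehicle cells, which was not called.

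Gadd45g had 4.22, 4.30 and 3.88 FPKM in mifepristone plus NaCl, 6.18, 5.67 and 5.97 in vehicle plus NaCl, 3.82, 4.44 and 5.37 in mifepristone and 5.35, 5.31 and 5.68 in vehicle libraries. The groups with NaCl did not overlap, while mifepristone C overlapped with the vehicle libraries. Mifepristone lowered it 1.39-fold with NaCl (log2 fold change -0.48, limma adjusted p = 0.000899). Without NaCl the value was -0.25 (limma adjusted p = 0.0342), a call lost without vehicle A, B or C or mifepristone A or B (limma adjusted p 0.0582 to 0.128), and without mifepristone A the value itself was -0.14. NaCl gave 0.11 in vehicle and -0.11 in mifepristone cells, neither called. In mifepristone cells the value was -0.22 and called without mifepristone A (limma adjusted p = 0.0308).

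Btg2 and Ccng1, a pair of further growth regulators, had small changes. Btg2, an antiproliferative cofactor of mRNA decay, averaged 19.3 ± 0.810 FPKM in mifepristone plus NaCl, 17.2 ± 0.842 in vehicle plus NaCl, 16.5 ± 0.737 in mifepristone and 14.9 ± 0.149 in vehicle libraries (SD, n = 3 each) and rose 1.104-fold to 1.17-fold in all 4 comparisons. Its rise with mifepristone without NaCl was lost without vehicle C, without mifepristone C, or without vehicle A and mifepristone C together (limma adjusted p 0.0505 to 0.0862). Ccng1, the cyclin G1 gene, averaged 19.8 ± 1.001 FPKM in mifepristone plus NaCl, 23.3 ± 0.285 in vehicle plus NaCl, 18.4 ± 0.732 in mifepristone and 20.8 ± 0.876 in vehicle libraries. Mifepristone lowered it 1.13-fold without NaCl, a call lost without vehicle A and mifepristone C together (log2 fold change -0.12, limma adjusted p = 0.0525), and 1.18-fold with NaCl. NaCl raised it in vehicle cells (log2 fold change 0.16, limma adjusted p = 0.00984), and in mifepristone cells it was called (0.13, limma adjusted p = 0.0389) when mifepristone A was left out.

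The 4 genes of DNA repair and nucleotide supply were split by mifepristone. Rrm2b, the p53-induced subunit of ribonucleotide reductase, had 10.5, 10.7 and 11.2 FPKM in mifepristone plus NaCl, 7.40, 7.57 and 7.42 in vehicle plus NaCl, 9.26, 8.99 and 7.87 in mifepristone and 6.48, 6.35 and 6.37 in vehicle libraries. It was higher with either treatment and highest with both. Mifepristone raised it 1.33-fold without and 1.42-fold with NaCl (log2 fold changes 0.41 and 0.50, limma adjusted p = 4.11e-05 and 7.79e-06), and NaCl raised it 1.15-fold in vehicle and 1.23-fold in mifepristone cells. Ddb2, which recognises ultraviolet damage, averaged 10.5 ± 0.333 FPKM in mifepristone plus NaCl, 8.23 ± 0.122 in vehicle plus NaCl, 11.9 ± 0.728 in mifepristone and 9.24 ± 0.211 in vehicle libraries (SD, n = 3 each). It rose 1.27-fold with mifepristone in both salt conditions and fell with NaCl by 0.16 on the log2 scale in both cell states, of which the fall in mifepristone cells was lost under median-ratio scaling (-0.12, limma adjusted p = 0.0523). The opposite-strand gene Acp2 covers 23.8% of its exon bases and averaged 5.55 FPKM in mifepristone and 6.03 in vehicle libraries. Xpc, the damage sensor of nucleotide excision repair, fell 1.16-fold with mifepristone without NaCl, and the polymerase gene Polk fell 1.22-fold (log2 fold changes -0.21 and -0.28). Both rose with NaCl in mifepristone cells (0.18 and 0.29), and neither was called with mifepristone in the presence of NaCl, where Polk was called at -0.11 without mifepristone C (limma adjusted p = 0.00797). With NaCl in vehicle cells Polk had 0.12 (limma adjusted p = 0.0504) and was called without mifepristone A or C (limma adjusted p = 0.0416 and 0.00485).

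Among targets that damp growth signalling, Phlda3, an inhibitor of the kinase Akt, rose with mifepristone. Phlda3 had 18.5, 17.4 and 17.2 FPKM in mifepristone plus NaCl, 9.82, 9.99 and 10.2 in vehicle plus NaCl, 16.98, 19.2 and 21.8 in mifepristone and 12.8, 11.1 and 11.0 in vehicle libraries. All 6 mifepristone libraries lay above all 6 vehicle libraries. The rise was 1.63-fold without NaCl (log2 fold change 0.70, SE 0.0815, limma adjusted p = 2.09e-05) and 1.73-fold with NaCl (0.79, limma adjusted p = 7.85e-06). NaCl gave -0.21 in vehicle cells, just short of a call (limma adjusted p = 0.0506), and was called there in 8 of the alternatives, among them without vehicle C, mifepristone A or mifepristone C (limma adjusted p 0.0146 to 0.0487). In mifepristone cells NaCl gave -0.12, which was called at -0.21 without mifepristone A (limma adjusted p = 0.0334).

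Sesn1, a sestrin that restrains the growth kinase mTORC1, fell with NaCl. It had 10.1, 9.49 and 9.43 FPKM in mifepristone plus NaCl, 8.21, 7.58 and 7.67 in vehicle plus NaCl, 14.2, 15.1 and 15.8 in mifepristone and 15.2, 14.96 and 14.8 in vehicle libraries. Both groups with NaCl lay well below those without it. The fall was 1.86-fold in vehicle cells (log2 fold change -0.90, SE 0.0458, limma adjusted p = 3.64e-08) and 1.53-fold in mifepristone cells (-0.61, limma adjusted p = 6.21e-07), a difference of 0.29 that the interaction called (limma adjusted p = 0.0066). Trp53inp1, a p53-induced protein of stress and autophagy, had 4.62, 5.33 and 5.01 FPKM in mifepristone plus NaCl, 5.68, 5.87 and 5.83 in vehicle plus NaCl, 7.34, 7.05 and 5.997 in mifepristone and 5.77, 5.85 and 5.43 in vehicle libraries. Its direction with mifepristone was opposite in the 2 salt conditions, as for Gadd45b but the other way round. Mifepristone raised Trp53inp1 without NaCl (log2 fold change 0.23, limma adjusted p = 0.0132) and lowered it with NaCl (-0.20, limma adjusted p = 0.0289), with an interaction of -0.43 (SE 0.0984, limma adjusted p = 0.00679). The rise was lost without mifepristone A (0.18, limma adjusted p = 0.0549), and the fall without vehicle plus NaCl B or C, without mifepristone plus NaCl A or C, or under median-ratio scaling (limma adjusted p 0.0581 to 0.115). Zmat3, an RNA-binding protein, averaged 1.93 ± 0.0345 FPKM in mifepristone plus NaCl, 2.11 ± 0.0824 in vehicle plus NaCl, 1.85 ± 0.144 in mifepristone and 1.53 ± 0.0516 in vehicle libraries (SD, n = 3 each). It rose 1.29-fold with NaCl in vehicle cells and 1.16-fold with mifepristone without NaCl, and the interaction was -0.31 (limma adjusted p = 0.0106). Tigar, a phosphatase that slows glycolysis, rose 1.11-fold with NaCl in vehicle cells, a call lost without vehicle B (limma adjusted p = 0.0526) and with voom (0.058), and 1.15-fold in mifepristone cells. It was not called with mifepristone.

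The BH3-only genes, the initiators of the mitochondrial arm, were led by Bid. Bid lies at chr6:120891930-120916853 on the minus strand, and its product is cut by Casp8 to activate Bax and Bak1. It had 43.9, 41.8 and 39.97 FPKM in mifepristone plus NaCl, 23.4, 21.9 and 22.8 in vehicle plus NaCl, 23.3, 23.9 and 25.1 in mifepristone and 11.99, 11.3 and 11.3 in vehicle libraries. Each treatment alone lay well above vehicle, and the libraries with both stood above all others. Mifepristone raised it 2.04-fold without NaCl (log2 fold change 1.03, SE 0.0452, limma adjusted p = 6.74e-09) and 1.83-fold with NaCl (0.87, limma adjusted p = 2.43e-08). NaCl raised it 1.92-fold in vehicle cells (0.94, limma adjusted p = 2.24e-08) and 1.72-fold in mifepristone cells (0.78, limma adjusted p = 7.36e-08). The interaction of -0.16 (SE 0.064) was not called (limma adjusted p = 0.084). Bcl2l13 overlaps 17.7% of its exon bases on the other strand and averaged 10.2 FPKM in mifepristone plus NaCl, 10.6 in vehicle plus NaCl, 9.99 in mifepristone and 9.22 in vehicle libraries.

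Bcl2l11, which encodes Bim, rose with mifepristone in both salt conditions. It had 7.56, 7.005 and 7.48 FPKM in mifepristone plus NaCl, 4.60, 4.73 and 4.66 in vehicle plus NaCl, 8.48, 8.34 and 7.60 in mifepristone and 4.23, 4.38 and 4.57 in vehicle libraries. The 6 mifepristone libraries lay above the 6 vehicle libraries. The rise was 1.76-fold without NaCl (log2 fold change 0.82, SE 0.0483, limma adjusted p = 7.32e-08) and 1.52-fold with NaCl (0.60, limma adjusted p = 9.17e-07). NaCl lowered it in mifepristone cells (-0.14, limma adjusted p = 0.0297), a call lost without mifepristone A or B or mifepristone plus NaCl B and under both other scalings (limma adjusted p 0.0757 to 0.154).

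Pmaip1 (Noxa) and Bbc3 (Puma), 2 classical p53 targets, were not called higher with mifepristone in either salt condition, whereas Pmaip1, like Bid, rose with NaCl in both cell states. Pmaip1 had 23.7, 26.1 and 23.7 FPKM in mifepristone plus NaCl, 23.9, 23.2 and 22.7 in vehicle plus NaCl, 12.5, 13.6 and 14.6 in mifepristone and 18.4, 16.7 and 16.1 in vehicle libraries. The groups with NaCl overlapped with each other and lay above those without it. NaCl raised it 1.78-fold in mifepristone cells (log2 fold change 0.83, SE 0.0638, limma adjusted p = 7.96e-07) and 1.36-fold in vehicle cells (0.44, limma adjusted p = 0.000159). Mifepristone lowered it without NaCl (-0.32, limma adjusted p = 0.00121) and gave 0.07 with NaCl, which was not called. Bbc3 had 1.93, 2.32 and 2.02 FPKM in mifepristone plus NaCl, 3.11, 3.59 and 2.92 in vehicle plus NaCl, 1.84, 2.13 and 1.94 in mifepristone and 2.65, 2.97 and 2.87 in vehicle libraries. Every mifepristone library lay below every vehicle library. Bbc3 fell 1.35-fold without NaCl (log2 fold change -0.43, SE 0.0803, limma adjusted p = 0.00075) and 1.43-fold with NaCl (-0.52, limma adjusted p = 0.00021). Bad, a BH3-only protein controlled by phosphorylation, averaged 15.5 ± 0.796 FPKM in mifepristone plus NaCl, 13.8 ± 0.543 in vehicle plus NaCl, 18.4 ± 2.3996 in mifepristone and 18.1 ± 0.803 in vehicle libraries (SD, n = 3 each). It fell with NaCl 1.31-fold in vehicle cells and 1.18-fold in mifepristone cells, the second call being lost without mifepristone plus NaCl C (log2 fold change -0.19, limma adjusted p = 0.0843). With mifepristone in the presence of NaCl Bad was called at 0.16 without mifepristone C (limma adjusted p = 0.0101). Gpr137 overlaps 20.5% of the exon bases of Bad on the other strand and averaged 18.04 FPKM in mifepristone plus NaCl, 10.4 in vehicle plus NaCl, 17.1 in mifepristone and 9.59 in vehicle libraries.

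**Figure D3:**
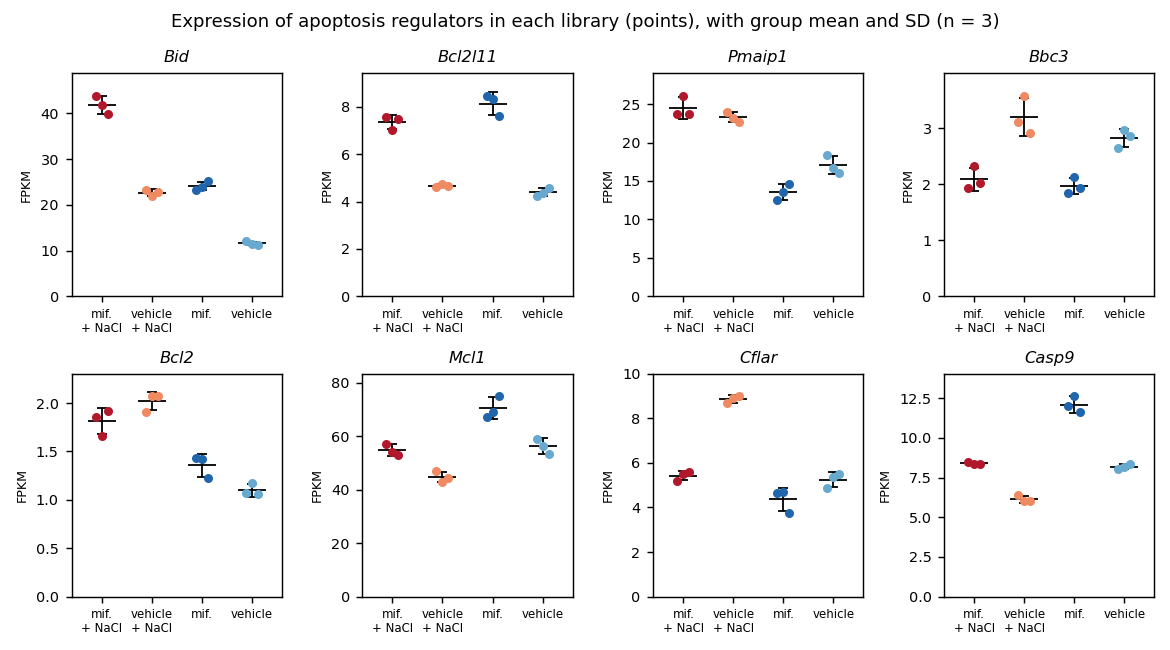
FPKM of 8 regulators of apoptosis in each library (points), with the group mean (dash) and SD (bars, n = 3), for mifepristone plus NaCl, vehicle plus NaCl, mifepristone and vehicle from left to right. Bid averages 41.9, 22.7, 24.1 and 11.5 FPKM in this order, and Bcl2l11 is high in both mifepristone groups (7.35 and 8.14 FPKM against 4.66 and 4.39).

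Of the pore formers, Bax lay at the 91.7 percentile of tested genes by mean FPKM and Bak1 at the 57.6 percentile, and Bak1 fell with NaCl. Bax had 57.5, 56.2 and 54.2 FPKM in mifepristone plus NaCl, 62.1, 58.3 and 61.7 in vehicle plus NaCl, 50.2, 52.8 and 65.4 in mifepristone and 65.9, 59.0 and 61.4 in vehicle libraries. Mifepristone C stood above the other 2 libraries of its group. Mifepristone gave log2 fold changes of -0.15 without NaCl (SE 0.0841) and -0.12 with it, and NaCl -0.03 in vehicle and 0.00 in mifepristone cells, none of them called. Without mifepristone C the value without NaCl was -0.27 and called (limma adjusted p = 0.00107), and that with NaCl was called at -0.12 (limma adjusted p = 0.047). Under quantile normalization both were called too (limma adjusted p = 0.0198 and 0.0457), and without vehicle A and mifepristone C together NaCl in mifepristone cells was called at 0.12 (limma adjusted p = 0.0307). Bak1 averaged 9.87 ± 0.758 FPKM in mifepristone plus NaCl, 10.5 ± 0.148 in vehicle plus NaCl, 12.5 ± 0.749 in mifepristone and 11.7 ± 0.0479 in vehicle libraries (SD, n = 3 each). NaCl lowered it 1.25-fold in mifepristone cells (log2 fold change -0.33, limma adjusted p = 0.000337). Its fall in vehicle cells (-0.15, limma adjusted p = 0.0338) was lost without any 1 of the 6 vehicle libraries with or without NaCl and under median-ratio scaling (limma adjusted p 0.0547 to 0.086). With mifepristone in the presence of NaCl it was called at -0.15 without mifepristone plus NaCl A (limma adjusted p = 0.0216). Ggnbp1 overlaps 25.5% of the exon bases of Bak1 on the other strand. Its mean was 1.16 FPKM in mifepristone plus NaCl, 0.903 in vehicle plus NaCl and 1.01 in both groups without NaCl. Gm45808 overlaps 12.2% of the exon bases of Bax on the same strand, and no level of it is given here.

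The guardians of the Bcl-2 family each differed. Bcl2l1 (Bcl-xL) had 17.4, 16.9 and 16.7 FPKM in mifepristone plus NaCl, 18.2, 17.4 and 17.7 in vehicle plus NaCl, 17.6, 17.2 and 18.9 in mifepristone and 17.5, 17.3 and 16.8 in vehicle libraries. It was not called in any of the 4 comparisons, with log2 fold changes between -0.07 and 0.06 and SE 0.0388. Mcl1 had 57.2, 54.0 and 52.9 FPKM in mifepristone plus NaCl, 46.8, 42.9 and 44.4 in vehicle plus NaCl, 67.1, 69.0 and 75.1 in mifepristone and 59.1, 56.4 and 53.3 in vehicle libraries. Mifepristone raised Mcl1 1.25-fold without and 1.22-fold with NaCl (log2 fold changes 0.32 and 0.29, limma adjusted p = 0.000516 and 0.00106), and NaCl lowered it by 0.33 in vehicle and 0.36 in mifepristone cells on the log2 scale. Bcl2 itself was low, with 1.85, 1.66 and 1.92 FPKM in mifepristone plus NaCl, 1.91, 2.07 and 2.07 in vehicle plus NaCl, 1.43, 1.42 and 1.22 in mifepristone and 1.07, 1.18 and 1.06 in vehicle libraries. Both NaCl groups lay above those without NaCl. NaCl raised it 1.57-fold in vehicle cells (log2 fold change 0.65, SE 0.0666, limma adjusted p = 9.77e-06) and 1.25-fold in mifepristone cells (0.32, limma adjusted p = 0.00182), and the interaction was -0.34 (limma adjusted p = 0.019). Its rise with mifepristone without NaCl (0.21, limma adjusted p = 0.0163) was lost without vehicle C or mifepristone A or B (limma adjusted p 0.0523 to 0.0591).

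Of the 3 tested genes of the receptor arm, the largest called change was that of Cflar, which encodes FLIP, a decoy that blocks Casp8. Cflar had 5.19, 5.49 and 5.61 FPKM in mifepristone plus NaCl, 8.69, 8.91 and 9.01 in vehicle plus NaCl, 4.65, 4.68 and 3.75 in mifepristone and 4.88, 5.38 and 5.50 in vehicle libraries. The vehicle plus NaCl libraries stood above all others. NaCl raised it 1.63-fold in vehicle cells (log2 fold change 0.71, SE 0.0736, limma adjusted p = 1.25e-05) but 1.22-fold in mifepristone cells (0.29, limma adjusted p = 0.00562), and the interaction was -0.41 (limma adjusted p = 0.0116). Mifepristone lowered it 1.58-fold with NaCl (-0.66, limma adjusted p = 1.47e-05) and 1.19-fold without (-0.25, limma adjusted p = 0.0133). Casp8 averaged 21.3 ± 1.21 FPKM in mifepristone plus NaCl, 19.7 ± 0.479 in vehicle plus NaCl, 26.8 ± 0.505 in mifepristone and 23.4 ± 0.414 in vehicle libraries (SD, n = 3 each). It rose 1.14-fold with mifepristone without NaCl and fell with NaCl by 0.24 in vehicle and 0.33 in mifepristone cells on the log2 scale. With NaCl its rise with mifepristone (0.11, limma adjusted p = 0.0385) was lost without mifepristone plus NaCl A or B, vehicle plus NaCl B or C, mifepristone B, or vehicle B (limma adjusted p 0.0504 to 0.142). Tnfrsf10b, the mouse receptor of the death ligand TRAIL, averaged 8.96 ± 0.168 FPKM in mifepristone plus NaCl, 7.98 ± 0.224 in vehicle plus NaCl, 9.27 ± 0.0516 in mifepristone and 8.96 ± 0.333 in vehicle libraries. It rose 1.11-fold with mifepristone in the presence of NaCl and fell 1.11-fold with NaCl in vehicle cells.

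Fas and Eda2r, the 2 death receptor genes below the filter, were barely detected. Fas had 43, 47 and 54 reads in mifepristone plus NaCl, 32, 30 and 32 in vehicle plus NaCl, 21, 25 and 25 in mifepristone and 10, 19 and 12 in vehicle libraries. These order the 4 groups without overlap. Summed over a group and scaled to depth, its reads in NaCl over no NaCl had a ratio of 2.22 in vehicle cells (95% exact interval 1.52 to 3.28) and 2.09 in mifepristone cells (1.56 to 2.82). The ratio of mifepristone over vehicle was 1.66 without NaCl (1.11 to 2.49) and 1.56 with it (1.19 to 2.04). Eda2r, the receptor of ectodysplasin A2, had 62, 32, 66 and 22 reads in all in mifepristone plus NaCl, vehicle plus NaCl, mifepristone and vehicle libraries, at most 0.105 FPKM in any library. These intervals cover counting error only, not the spread between libraries.

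Of the apoptosome genes one rose and one fell with mifepristone. Casp9, the initiator caspase, had 8.49, 8.35 and 8.33 FPKM in mifepristone plus NaCl, 6.38, 6.03 and 5.99 in vehicle plus NaCl, 12.01, 12.6 and 11.6 in mifepristone and 8.07, 8.14 and 8.35 in vehicle libraries. The mifepristone libraries without NaCl were the highest and the vehicle plus NaCl libraries the lowest. Mifepristone raised it 1.45-fold without NaCl (log2 fold change 0.53, SE 0.0388, limma adjusted p = 4.19e-07) and 1.34-fold with NaCl, and NaCl lowered it 1.31-fold in vehicle and 1.42-fold in mifepristone cells. Its scaffold partner Apaf1 averaged 4.77 ± 0.356 FPKM in mifepristone plus NaCl, 6.08 ± 0.207 in vehicle plus NaCl, 5.16 ± 0.309 in mifepristone and 6.58 ± 0.267 in vehicle libraries (SD, n = 3 each). It fell 1.25-fold with mifepristone in both salt conditions (log2 fold change -0.32 each, limma adjusted p = 0.000603 without and 0.000601 with NaCl). NaCl gave -0.10 for Apaf1 in both cell states, and neither was called, except in mifepristone cells without mifepristone C (-0.15, limma adjusted p = 0.0408) or mifepristone plus NaCl C (-0.16, limma adjusted p = 0.0425).

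Among the inhibitors of apoptosis, Birc3, a ubiquitin ligase and known target of NF-kB, rose with NaCl. It had 1.78, 1.78 and 1.75 FPKM in mifepristone plus NaCl, 1.33, 1.31 and 1.39 in vehicle plus NaCl, 1.08, 1.11 and 1.04 in mifepristone and 1.08, 0.937 and 1.117 in vehicle libraries. Mifepristone and vehicle overlapped without NaCl and were apart with it. NaCl raised it 1.44-fold in mifepristone cells (log2 fold change 0.53, SE 0.0558, limma adjusted p = 1.06e-05) and 1.196-fold in vehicle cells (0.26, limma adjusted p = 0.00231). Mifepristone raised it 1.23-fold with NaCl (0.30, limma adjusted p = 0.000744). Its neighbour in function Birc2 averaged 8.47 ± 0.200 FPKM in mifepristone plus NaCl, 9.89 ± 0.164 in vehicle plus NaCl, 8.10 ± 0.162 in mifepristone and 9.89 ± 0.194 in vehicle libraries (SD, n = 3 each), and fell with mifepristone 1.21-fold without and 1.16-fold with NaCl. Xiap, which blocks caspases directly, averaged 12.1 to 13.0 FPKM over the 4 groups and was not called in any comparison, with log2 fold changes between -0.03 and 0.10. Without mifepristone C it was called at 0.14 with mifepristone without NaCl (limma adjusted p = 0.00718) and at 0.10 with NaCl in vehicle cells (limma adjusted p = 0.025).

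The remaining 2 p53 effectors of cell death moved apart. Aen, a p53-induced nuclease, had 6.65, 6.59 and 6.66 FPKM in mifepristone plus NaCl, 4.48, 4.47 and 4.63 in vehicle plus NaCl, 7.88, 8.06 and 7.98 in mifepristone and 4.30, 3.79 and 4.45 in vehicle libraries. All mifepristone libraries lay above all vehicle libraries. Mifepristone raised it 1.81-fold without NaCl (log2 fold change 0.86, SE 0.0486, limma adjusted p = 5.26e-08) and 1.42-fold with NaCl (0.50, limma adjusted p = 4.25e-06), and the interaction was -0.35 (limma adjusted p = 0.00281). NaCl lowered it in mifepristone cells (-0.25, limma adjusted p = 0.00111) and gave 0.11 in vehicle cells, called at 0.15 without vehicle C (limma adjusted p = 0.0275). Perp, a membrane protein of desmosomes and of p53-dependent death, had 15.3, 15.1 and 13.6 FPKM in mifepristone plus NaCl, 13.8, 12.6 and 13.1 in vehicle plus NaCl, 12.8, 13.3 and 16.5 in mifepristone and 19.0, 18.2 and 17.2 in vehicle libraries. The vehicle libraries were the highest, with mifepristone C next. Each treatment alone lowered Perp, mifepristone 1.27-fold (log2 fold change -0.35, limma adjusted p = 0.00447) and NaCl 1.37-fold (-0.45, limma adjusted p = 0.00102). With both, mifepristone gave 0.15 and NaCl 0.05, neither called, and the interaction was 0.50 (SE 0.121, limma adjusted p = 0.00927). Without mifepristone C both were called, at 0.15 and 0.16 (limma adjusted p = 0.0259 and 0.0346).

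Across the members, 12 rose and 7 fell with mifepristone in both salt conditions, where 18.6% of all tested genes were called higher in both and 21.3% lower in both. The 12 were Aen, Bcl2l11, Bid, Btg2, Casp8, Casp9, Ddb2, Gadd45a, Mcl1, Phlda3, Plk3 and Rrm2b, and the 7 were Apaf1, Bbc3, Birc2, Ccng1, Cdkn1a, Cflar and Gadd45g. Gadd45b and Trp53inp1 were called in opposite directions (2.98% of all genes), 12 members in 1 condition, and 7 in neither (Bad, Bak1, Bax, Bcl2l1, Tigar, Trp53 and Xiap). NaCl raised 11 members in both cell states (Bcl2, Bid, Birc3, Btg2, Cflar, Mdm2, Plk2, Plk3, Pmaip1, Rrm2b and Tigar) and lowered 9 (Bad, Bak1, Casp8, Casp9, Ddb2, Gadd45a, Mcl1, Sesn1 and Trp53), with 0 of 40 called in opposite directions. Over all tested genes, 15.5% were called higher with NaCl in both cell states, 21.4% lower in both and 3.05% in opposite directions. Known p53 targets were found on both sides of the mifepristone contrast, where Cdkn1a, Bbc3 and Ccng1 fell while Phlda3, Aen, Ddb2 and Rrm2b rose. Bax, Bcl2l1 and Xiap were called in none of the 4 comparisons, of which Bax and Xiap were called without mifepristone C. Shares of all tested genes were not computed for calls in none of the 4 comparisons, in 1 mifepristone condition or in neither. Those counts are therefore not read as particular to the members.

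The interaction, which asks whether the mifepristone effect differs between salt conditions, was called for 15 of the 40 members, against 31.1% of all tested genes, with 7 higher (13.6% of all genes) and 8 lower (17.5%). The split was 10 and 7 under quantile normalization and 9 and 6 with voom. Over all genes it was 1915 higher and 2459 lower, against 2385 and 2416 under quantile normalization and 2358 and 1981 with voom. Plk2 had the largest value (0.94), followed by Gadd45b (0.61) and Perp (0.50). The call of Trp53 (-0.14, limma adjusted p = 0.0415) was lost without vehicle B or C, any vehicle plus NaCl library, mifepristone B, or mifepristone plus NaCl B or C (limma adjusted p 0.0585 to 0.102). The call of Bcl2l11 (-0.22, limma adjusted p = 0.0342) was lost without vehicle A or B, any vehicle plus NaCl library, mifepristone A or B, or mifepristone plus NaCl B (limma adjusted p 0.054 to 0.085). Birc3 (0.27, limma adjusted p = 0.0245) lost its call without vehicle A or C, vehicle plus NaCl A or B, or mifepristone plus NaCl A or B (limma adjusted p 0.0516 to 0.0591). Xpc (0.18, limma adjusted p = 0.022) lost it without vehicle B, vehicle plus NaCl B or mifepristone plus NaCl A (limma adjusted p 0.0543 to 0.0596). Calls were gained without mifepristone C by Mdm4, Bad, Casp9 and Xiap (limma adjusted p 0.00416 to 0.043), without mifepristone A by Gadd45g and Bak1 (0.0344 and 0.0495), and without mifepristone plus NaCl A by Mdm2 and Bak1 (0.0108 and 0.0223).

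**Figure D4:**
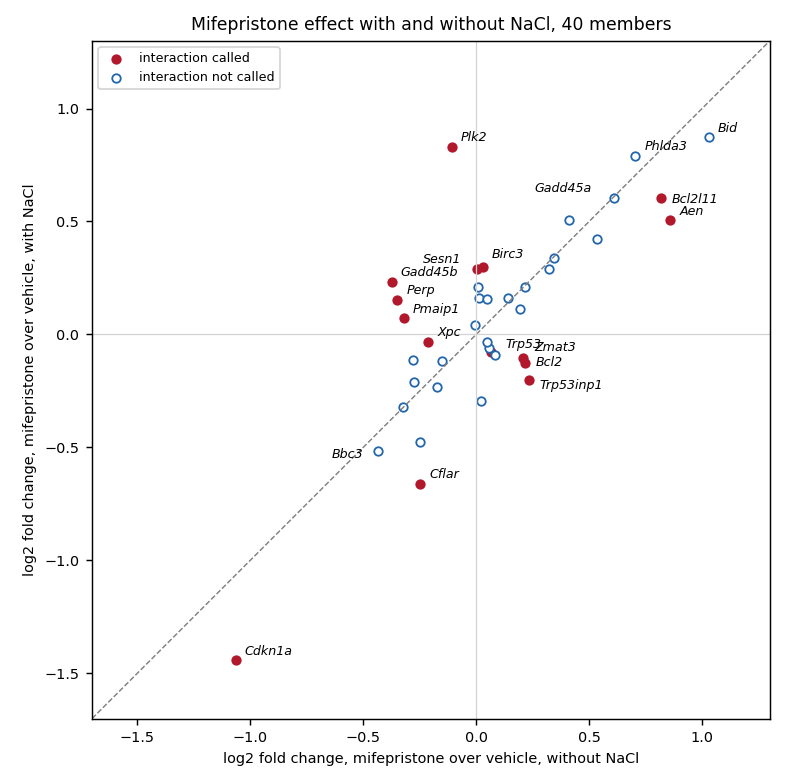
Log2 fold change of mifepristone over vehicle with NaCl (vertical axis) against that without NaCl (horizontal axis) for the 40 tested members, with the line of equal effect dashed. Filled red points are the 15 members whose interaction was called and open blue points the other 25, and Plk2 (0.83 with and -0.11 without NaCl) lies farthest from the line.

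A wider list of 113 further genes of the p53 pathway and apoptosis, of which 97 were tested, moved both ways as well. Mifepristone raised 29 and lowered 33 of the 97 without NaCl and raised 25 and lowered 33 with it. NaCl raised 36 and lowered 31 in vehicle cells and raised 24 and lowered 35 in mifepristone cells, and the medians in these 4 comparisons lay between -0.05 and 0.00. The shares of all tested genes called in each comparison, given above, apply to this list and to its sub-lists, and nothing is read as particular to any of them. Of 37 tested further p53 targets, mifepristone raised 10 and lowered 17 without NaCl and raised 13 and lowered 15 with it, and NaCl raised 11 and lowered 13 in vehicle cells and raised 12 and lowered 14 in mifepristone cells. Ptp4a1, a phosphatase gene, rose with mifepristone (1.57 without and 1.87 with NaCl), and Trp53i11 fell (-1.59 and -1.96). Ccnd1, the cyclin D1 gene, fell with NaCl (-1.71 in vehicle and -1.57 in mifepristone cells), while its rise with mifepristone in the presence of NaCl (0.22) had the opposite sign and no call under quantile normalization (-0.06). That rise (limma adjusted p = 0.0399) was also lost without vehicle A or B, vehicle plus NaCl A or B, mifepristone A, or mifepristone plus NaCl B or C (limma adjusted p 0.0505 to 0.112).

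Of 16 tested kinases and cofactors upstream of p53, 5 rose and 3 fell with mifepristone without NaCl, and 4 rose and 5 fell with NaCl present. Of the same 16, 9 rose and 2 fell with NaCl in vehicle cells, and 3 rose and 4 fell in mifepristone cells. Hipk2, a kinase that activates p53, rose with mifepristone (log2 fold change 1.56 without and 1.37 with NaCl, SE 0.27), and Rb1, the retinoblastoma gene, fell (-1.02 and -0.88). Ppp1r13b, which encodes a p53-binding protein of the ASPP family, rose without NaCl (0.60), and the checkpoint kinase gene Chek2 fell (-0.51 and -0.47). Of 10 further caspases and substrates, 2 rose and 4 fell with mifepristone in either salt condition, and NaCl raised 2 and lowered 6 in vehicle cells and raised 1 and lowered 7 in mifepristone cells. The inflammatory caspase genes Casp12 (1.59 without and 1.46 with NaCl) and Casp4 (1.33 and 1.20) rose, while the lamin gene Lmna fell with NaCl (-0.51 in vehicle and -0.88 in mifepristone cells).

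Among 10 further genes of the Bcl-2 family or binding it, 2 rose and 3 fell with mifepristone without NaCl, and 1 rose and 4 fell with NaCl present. In the same list NaCl raised 3 and lowered 3 in vehicle cells and raised 3 and lowered 4 in mifepristone cells. Bag3, a co-chaperone gene, rose in both conditions (log2 fold change 1.47 without and 1.98 with NaCl), and Bnip3, a mitophagy receptor gene and hypoxia target, fell (-1.49 and -1.13). Bmf, a BH3-only gene, averaged 2.07 FPKM in mifepristone plus NaCl, 2.81 in vehicle plus NaCl, 8.97 in mifepristone and 4.32 in vehicle libraries. It rose with mifepristone without NaCl (0.97) and fell with NaCl present (-0.36), with an interaction of -1.34 (SE 0.11). Another BH3-only gene, Bik, fell with NaCl (-1.33 in vehicle and -1.27 in mifepristone cells). Of 9 tested genes of mitochondrial release, or of inhibitors of apoptosis and their antagonists, 5 rose and 1 fell with NaCl in vehicle cells. In mifepristone cells 2 rose and 1 fell. Mifepristone raised 2 of the 9 and lowered 3 without NaCl, and raised 1 and lowered 2 with it. The cytochrome c gene Cycs rose with NaCl in vehicle cells by 0.56 and had 0.18 in mifepristone cells (limma adjusted p = 0.0603), which was called without vehicle A, mifepristone C, or mifepristone plus NaCl C (0.18 to 0.26, limma adjusted p 0.00451 to 0.0474). Xaf1, an antagonist of Xiap, rose with mifepristone (0.73 without and 0.87 with NaCl), the protease gene Htra2 fell (-0.66 and -0.36), and Birc6 had 0.50 with NaCl in vehicle cells (limma adjusted p = 0.0497). The call of Birc6 was lost without vehicle A or B, any vehicle plus NaCl library, mifepristone B, or any mifepristone plus NaCl library (limma adjusted p 0.0527 to 0.18). Without mifepristone C Birc6 was called at 0.63 with mifepristone without NaCl and at -0.38 with NaCl in mifepristone cells (limma adjusted p = 0.00349 and 0.0441), with an interaction of -0.88 (limma adjusted p = 0.00483). Of 15 tested genes of death receptor signalling, 8 rose and 3 fell with mifepristone without NaCl, and 4 rose and 3 fell with NaCl present. Among these 15, NaCl raised 6 and lowered 6 in vehicle cells and raised 3 and lowered 5 in mifepristone cells. The TNF receptor gene Tnfrsf1b rose with mifepristone without NaCl (0.88) and fell with NaCl (-1.09 in vehicle and -1.88 in mifepristone cells), Tnfrsf1a and Tnfrsf12a fell with NaCl (-0.48 and -0.38 in vehicle cells), and Tnfaip3, an NF-kB inhibitor gene, rose with NaCl (0.80 in vehicle and 1.46 in mifepristone cells).

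The authors' deposited tables mark genes with a nearby ChIP peak. The mark was present for 11 of the 40 tested members (27.5%), against 28.4% of all tested genes. The 11 were Apaf1, Bak1, Bbc3, Bcl2, Bcl2l1, Casp8, Cflar, Gadd45a, Gadd45g, Sesn1 and Trp53inp1, and with mifepristone without NaCl 4 of them rose and 4 fell, while with NaCl 3 rose and 5 fell. Of the 29 tested members that lacked it, 11 rose and 8 fell without NaCl, and 15 rose and 4 fell with NaCl. Among the 3987 marked genes of all those tested, 33.6% were higher and 34.5% lower with mifepristone without NaCl, and 28% higher and 40.1% lower with NaCl, against 26.2% and 30.3%, and 26.3% and 28.6%, of the 10057 unmarked genes. Cdkn1a, Bid and Plk2 lacked the mark. In the authors' deposited table of NaCl in control cells 14 of the 42 members were higher and 11 lower at an adjusted p-value under 0.05, and in that for mutant cells 15 were higher and 14 lower. Over all genes with a value, 9171 of 22141 were under 0.05 in the authors' deposited table of control cells. In that for mutant cells 10252 of 24606 were, and the counts of members are not read as particular to them. In the authors' deposited tables of the mutant without NaCl and of the interaction, the adjusted p-value was listed at 1 for all 42 members, so that column separates no member from another. It was also 1 for 22142 of the 23374 genes with a value in the authors' deposited table of the mutant (908 were under 0.05), and for 20124 of 20290 in that of the interaction (88 under 0.05). The log2 fold changes in the authors' deposited table of the mutant were -1.07 for Cdkn1a and 1.06 for Bid, against -1.06 and 1.03 from limma on FPKM, and the interaction of Plk2 was 0.94 in both.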

How the data were processed

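The 12 RNA-seq libraries of IMCD3 cells in 4 groups of 3 were used. Per the submitters' processing notes the authors used Trimmomatic 0.32, STAR 2.4.2a, SAMtools 1.0 and DESeq2 1.12.3 with GRCm38 (mm10). For the counting tool, annotation and strand setting, the sources used here give nothing. The authors deposited FPKM per gene and library and, per the file headers, tables of mean normalized counts (a signal over all libraries), log2 fold changes and adjusted p-values. Columns named for the mutant were assigned to mifepristone samples through NaCl, letter and knowledge of the study, and 0 sample columns were left without a sample. Library depth came from whole reads recovered from FPKM and the deposited mean normalized counts.

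Genes that reached FPKM 1 in 3 or more libraries were fitted as log2(FPKM + 0.5) in limma 3.58.1 (R 4.3.3) with the 4 groups, 8 residual degrees of freedom and Benjamini-Hochberg adjustment over 14044 genes. The fit was tested on simulated counts with 1 spread for all genes and changes of at least 1.5-fold in genes with many reads. That simulation held no transcript length trend, so it does not cover smaller changes or the libraries that stood apart. The members and lists were chosen with earlier results of these data known. Per-library values are given for Trp53, Mdm2, Cdkn1a, Bax, Bcl2l1 and Mcl1, for the 20 called members with the largest change, and in short form for others, with up to 4 genes for each further list. Some genes of those lists are not reported here. Gene positions are from GENCODE M21. The main fit did not pair libraries by the letters A, B and C. Correlations of deviations lay between -0.5 and 0.288 for libraries of the same letter and between -0.444 and 0.609 for other letters. They cannot decide whether libraries of a letter were handled together, because the deviations also carry the transcript length trend. Alternatives changed the pseudocount, filter, scaling, threshold and unit, added a replicate term, or left out libraries.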

Additional observations from a re-analysis of the deposited data

Results flagged for a closer look

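The effect of mifepristone differed between salt conditions by the limma interaction term for 15 of the 40 tested members, against 31.1% of all tested genes. A positive value means a higher mifepristone effect with NaCl. Plk2 had an interaction of 0.94 on the log2 scale, Gadd45b 0.61, Perp 0.50, Pmaip1 0.39, Sesn1 0.29, Birc3 0.27 and Xpc 0.18. Negative interactions were found for Trp53inp1 (-0.43), Cflar (-0.41), Cdkn1a (-0.38), Aen (-0.35), Bcl2 (-0.34), Zmat3 (-0.31), Bcl2l11 (-0.22) and Trp53 (-0.14). The calls of Trp53, Bcl2l11, Birc3 and Xpc were lost without single libraries, as given above. Trp53 was also not called under quantile normalization or with voom (limma adjusted p = 0.0621 and 0.141). Bcl2l11 was not called under median-ratio scaling or with voom (limma adjusted p = 0.0701 and 0.0827). The part of sequencing depth, transcript length trend or culture in these differences was not tested.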

How the results depend on the processing

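Of 4370 results for members under alternatives, 4171 kept their side of the threshold, 128 lost a call, 71 gained one and 0 changed sign with a call. Changes of sign in results without a call were not counted. With a mean FPKM of at least 5, mifepristone in the presence of NaCl called 5414 genes and the interaction 2807. At an adjusted p under 0.01 the interaction called 8 members and 2618 genes. Leaving out 1 library gave 3512 to 6784 genes for the interaction, the highest without mifepristone C. Ccnd1 with mifepristone in the presence of NaCl was -0.06 under quantile normalization (limma adjusted p = 0.504), and the cause was not tested. With the replicate block, 27 and 27 members were called for mifepristone without and with NaCl. For NaCl in vehicle and mifepristone cells 23 and 26 were called, and 13 for the interaction. Over all tested genes the block called 7972, 7780, 7479 and 7696 in the same order, and 3724 for the interaction. The main fit called 8391, 8240, 7965 and 8248 genes, and 4374 for the interaction. Whether the letters pair libraries could not be decided by the check made. Leaving out mifepristone C gained 16 member calls and lost 1, and leaving out vehicle A gained 0 and lost 5, with the cause not tested. Calls over all tested genes also rose without mifepristone C, to 9182 and 9235 for mifepristone without and with NaCl. For NaCl they rose to 8975 in vehicle and 8699 in mifepristone cells. Without vehicle A they were 7836, 8350, 7044 and 8334 in the same order, and 3717 for the interaction. The gains and losses are therefore not read as particular to the members.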
